A study of Mus musculus with 6 samples.

Results

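Mitochondrial carriers are the proteins that move metabolites, nucleotides, phosphate and cofactors across the inner mitochondrial membrane, and the uncoupling proteins belong to the same family. The members were taken by name, as every gene of the deposited table whose symbol is Slc25a followed by a number, together with Ucp1, Ucp2 and Ucp3, which gave 50 of 25746 genes. The family was picked with an earlier result in view: Ucp2 was chosen by its fall in the KO against WT counts, and the carriers whose promoter peaks are described one by one were chosen by the same RNA comparison. Those RNA values of Ucp2 are therefore given as a description, with no p-value. The other carriers entered whatever their values.

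The samples were mouse cardiac fibroblasts, labelled Acta2 KO or WT, with 2 RNA-seq libraries per genotype and 1 ATAC-seq library per genotype. Acta2 encodes smooth muscle α-actin. For these libraries the labels' protocols describe fibroblasts from WT mice and from mice with a floxed Acta2 allele (Acta2fl/fl). In that protocol both received Cre by adenovirus and TGFβ for 2 days, so virus and cytokine would be common to both groups. The labels give growth as in vivo and also describe mice with a MerCreMer transgene. These received tamoxifen daily (75 mg per kg of body weight) during 5 days beginning at age 6 weeks, had the left coronary artery ligated at 9 weeks, and were dosed again from 1 day ahead of ligation until 5 days past it. Cells marked by eGFP through Tcf21 lineage tracing were then sorted. Which of these routes gave a library is not stated, nor whether replicates were separate cultures or animals, so p-values measure only the spread between these libraries, which may be technical.

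The RNA-seq libraries held 8429166 to 11370115 estimated counts. Levels are given as CPM, counts scaled to a common library size. Acta2 itself stood at 256 and 265 CPM in KO, with 2184 and 2197 in WT. All 8 listed fibroblast markers were detected in each library, with summed levels of 3816 to 3862 CPM in KO and 4656 to 4828 CPM in WT, and 7 of the 8 fell in KO, where 17.4% of all tested genes were called lower and 18.3% higher. Summed macrophage and leukocyte markers lay at 177 to 179 CPM in KO and 97.8 to 102 CPM in WT, where 6 of 8 tested members rose, Fcgr1 was at 0 in every library and the estimated counts of Ptprc were 11 and 9 (KO) and 5 and 1 (WT). Summed endothelial markers lay at 149 to 164 CPM in KO and 114 to 120 CPM in WT, with 7 of 10 higher and 1 lower. Cardiomyocyte markers summed to between 5.07 and 8.51 CPM, 3.74 to 7.95 CPM of it from Tnnt2, with Pln at 0. Adipocyte markers summed to between 47.1 and 53.2 CPM, nearly all of it Fabp4, with Lep at 0. The part of other cell types in the carrier values was not tested.

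Carriers share a fold of repeated membrane-spanning modules and mostly exchange one solute for another. Ucp1, the uncoupling protein of brown fat, lets protons back into the matrix and releases heat. Ucp2 is found in many tissues, and limiting reactive oxygen and exporting small metabolites from the matrix have both been ascribed to it. The ADP/ATP and phosphate carriers serve ATP synthesis and are abundant in most tissues.

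Sequence is shown for 3 stretches of the Ucp2 locus: the promoter and first intron under the promoter peak of both lists, and a peak of the WT list alone. All are on the plus strand of mm10 (GRCm38), and capitals mark matches to the letters searched, on either strand: GGGCGG (the GC box), CACGTG (an E-box), CCAAT (the CCAAT box, a promoter element), GGAATG (the TEAD core) and TGANTCA (the AP-1 site). The first is the promoter, the 250 bases before the RefSeq start of Ucp2 at chr7:100493108-100493357, taken from RefSeq for GRCm38.p6. The second, labelled as the end of the first intron, is chr7:100493495-100493794, inside the promoter peak of both lists and just before both summits. It does not finish in AG, the usual last bases of an intron, so where that intron ends was not settled. The third is the centre of a peak found in the WT list alone, in an intron of the neighbouring Dnajb13, at chr7:100503378-100503677.

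Ucp2 promoter: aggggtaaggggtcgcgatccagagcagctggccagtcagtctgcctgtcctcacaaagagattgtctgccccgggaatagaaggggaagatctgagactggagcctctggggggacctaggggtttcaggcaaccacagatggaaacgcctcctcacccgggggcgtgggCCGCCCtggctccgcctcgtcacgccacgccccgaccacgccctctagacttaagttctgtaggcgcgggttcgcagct
Ucp2 first intron, end: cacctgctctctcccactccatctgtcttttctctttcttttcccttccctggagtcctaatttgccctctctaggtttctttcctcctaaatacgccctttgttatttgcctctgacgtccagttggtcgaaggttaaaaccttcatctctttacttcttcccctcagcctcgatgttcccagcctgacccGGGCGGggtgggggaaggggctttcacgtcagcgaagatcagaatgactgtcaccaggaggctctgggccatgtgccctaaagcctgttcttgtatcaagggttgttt
Peak downstream of Ucp2, WT list: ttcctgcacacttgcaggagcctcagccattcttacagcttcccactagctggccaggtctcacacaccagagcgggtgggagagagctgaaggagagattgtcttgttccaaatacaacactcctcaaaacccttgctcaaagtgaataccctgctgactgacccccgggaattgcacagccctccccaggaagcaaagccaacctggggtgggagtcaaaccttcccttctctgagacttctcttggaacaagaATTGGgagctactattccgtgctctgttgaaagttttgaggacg

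The promoter stretch was 63.6% G or C and held 1 GC box on the minus strand. In the full 300-base promoter window of the RefSeq table there were 2 GC boxes and none of the other 4 letter strings, whereas 35.7% of 32851 promoters of that length held at least 1 GC box, 37.4% CCAAT, 14.7% GGAATG, 7.81% TGANTCA and 7.15% CACGTG. The intron stretch also held 1 GC box, and the downstream stretch 1 CCAAT on the minus strand. Such a match describes the letters only.

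Ucp2 was the carrier with the largest difference between genotypes. It lies on the plus strand of chromosome 7 at 100493337 to 100502020 (ENSMUSG00000033685). Its estimated counts were 76 and 50 in the KO libraries against 905 and 939 in the WT libraries. These correspond to 6.65 and 4.56 CPM in KO, with 108 and 104 in WT, so the lowest WT library lay far above the highest KO library. The mean fell from 106 ± 3.30 to 5.60 ± 1.48 CPM (SD, n = 2), which left 5.28% of the WT level, a log2 fold change of -4.23. Counting Ucp2, 9 of the 12192 tested genes had a log2 fold change that low or lower. That place follows from how Ucp2 was chosen and is not counted as support. The kit is not stated to keep strand, and 305 bases of Ucp2 exon overlap Dnajb13 on the opposite strand, but Dnajb13 itself had 1 to 3 estimated counts in each library. None of the 100-base windows of Ucp2 transcripts occurred in another annotated gene. In bulk samples, fewer cells that express a gene and less RNA per cell cannot be told apart.

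Neither Ucp1 nor Ucp3 was detectable at this depth. Ucp1 and Ucp3, the uncoupling protein of skeletal muscle and heart, had 0 estimated counts in all 4 libraries, which allows up to 3 counts or 0.263 to 0.359 CPM per library, for counting error only. Slc25a27, also known as UCP4, had estimated counts of 1 and 7 (KO) and 1 and 0 (WT) and was not tested. Slc25a14 (UCP5) and Slc25a30, carriers close to the uncoupling proteins in sequence, were both expressed and did not pass the test, with log2 fold changes of 0.00 (SE 0.155) and 0.07 (SE 0.116). Slc25a14 stood at 11.6 and 10.7 CPM in KO, with 11.4 and 10.9 in WT, and its genotypes overlapped.

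No other tested gene around Ucp2 passed the test. Ucp3, whose gene ends 6905 bases upstream, was at 0 in every library. C2cd3, a centriole gene upstream, had 4.64 and 4.74 CPM in KO, with 3.59 and 4.42 in WT (log2 fold change 0.22, SE 0.250). Coa4, a mitochondrial assembly factor downstream, had 7.44 and 6.29 CPM in KO, with 8.03 and 6.96 in WT (log2 fold change -0.12, SE 0.193). Mrpl48, of the mitochondrial ribosome, had 66.3 and 66.5 CPM in KO, with 65.8 and 59.1 in WT (log2 fold change 0.09, SE 0.069). These 3 were the tested genes within 100 kb besides Ucp2 (edgeR quasi-likelihood, adjusted p = 0.326 to 0.666).

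Across the family, 39 carriers had enough counts to be tested, and most differed little. Of these, 7 were higher and 4 lower in KO at an adjusted p under 0.05 in edgeR, while 28 did not pass. The 4 include Ucp2, chosen by its fall. Without it 7 of 38 tested carriers were higher and 3 lower, with a median log2 fold change of 0.055. Of all tested genes 18.3% were called higher and 17.4% lower, 35.7% together, and the called share of the carriers was 28.2%. The median log2 fold change was 0.047 in the tested carriers and 0.001 in all tested genes, and 22 of the 39 carriers lay within 0.2 of 0. Just inside the threshold was Slc25a42 (adjusted p = 0.0331) and just outside it Slc25a37 (adjusted p = 0.0519). Of the 11 untested carriers, 5 had no count in any library (Ucp1, Ucp3, Slc25a18, Slc25a34 and Slc25a54) and 6 had at most 17 (Slc25a2, Slc25a21, Slc25a23, Slc25a27, Slc25a31 and Slc25a41).

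**Figure D1:**
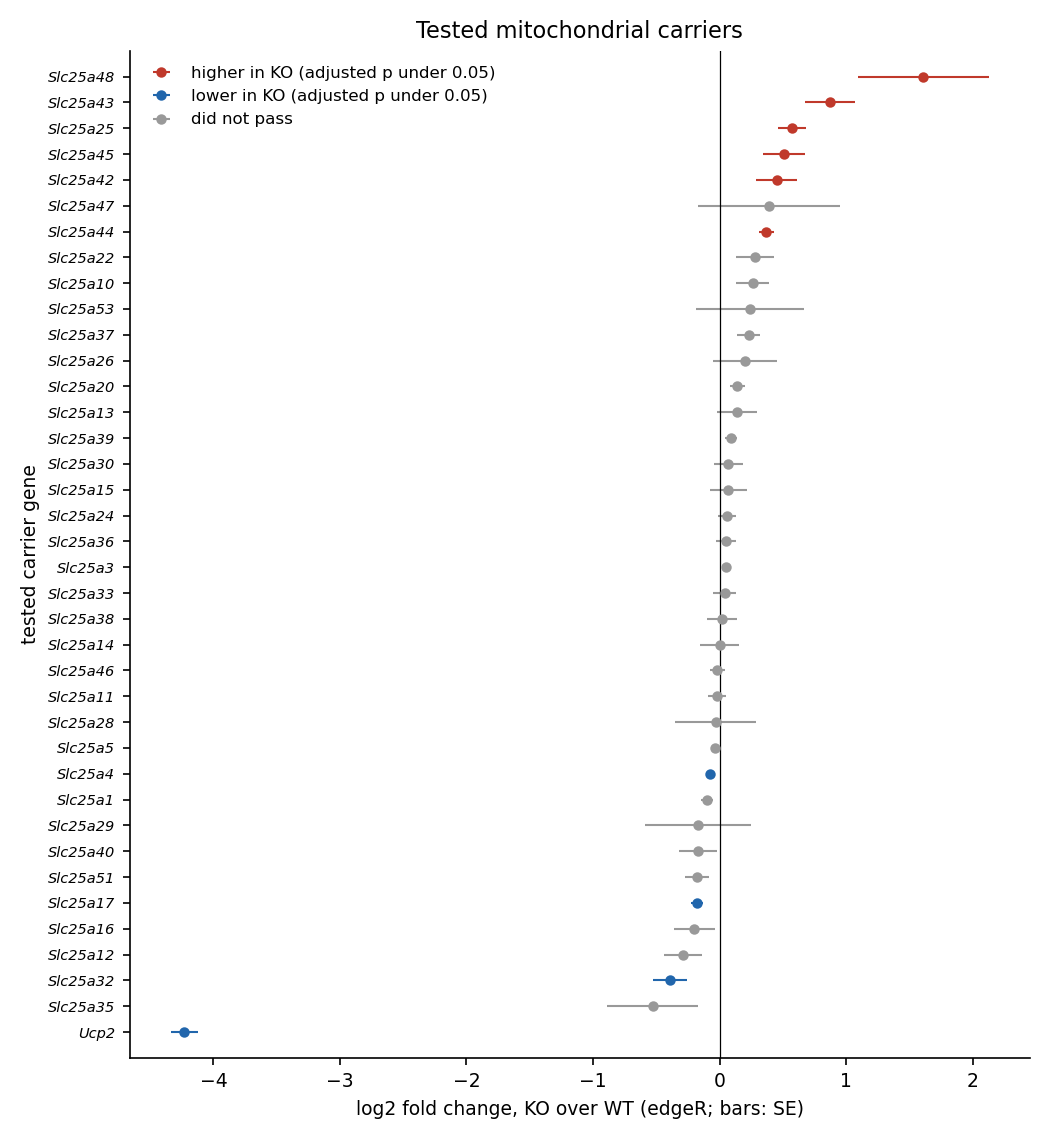
Log2 fold change of KO over WT for 38 of the 39 tested carriers (horizontal axis), ordered by value, with the SE of the edgeR fit as bars. Ucp2 lies at -4.23, while the others lie between -0.53 and 1.61.

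**Figure D2:**
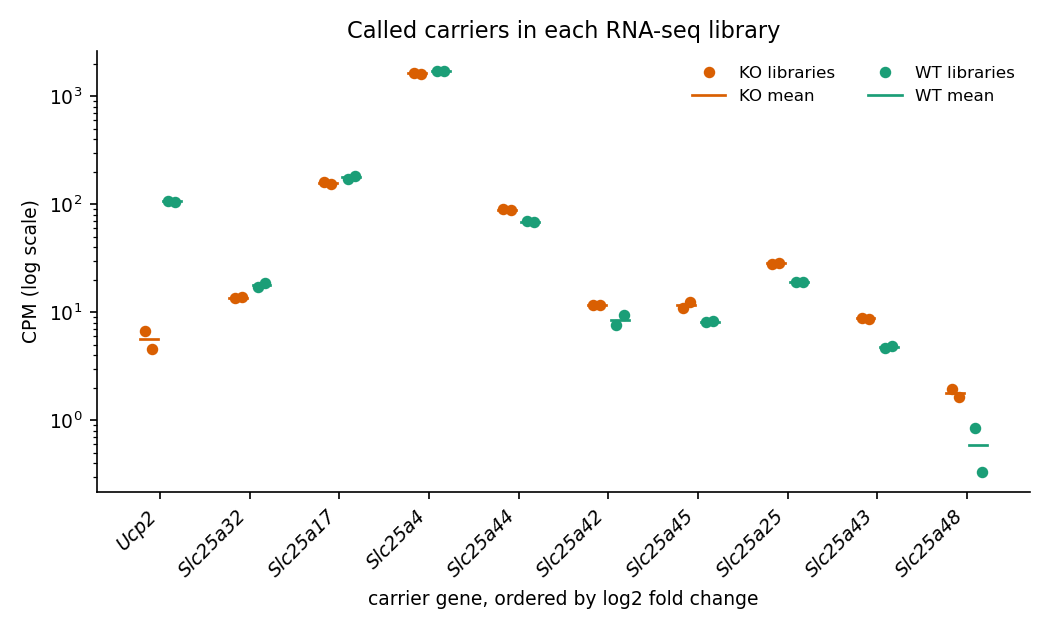
CPM on a log scale in each of the 4 RNA-seq libraries for 10 of the 11 called carriers (points: libraries, lines: means of 2). The KO and WT points of Ucp2 stand more than a log10 unit apart, and no plotted carrier has overlapping genotypes. The plotted carriers were picked by their call. Genotypes also did not overlap in 25 of the 39 tested carriers and 8179 of the 12192 tested genes.

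Adenine nucleotide and phosphate carriers made up most of the family's transcripts. Levels of different genes are compared here as CPM per kilobase of merged exons. Slc25a4, the ADP/ATP carrier of heart and muscle, stood at 698 and 678 CPM per kb in KO and 727 and 729 CPM per kb in WT. Slc25a5, the ADP/ATP carrier of dividing cells, followed at 644 and 623 in KO and 649 and 654 in WT on the same scale. Slc25a3, which brings in phosphate, had 118 and 119 in KO and 115 and 114 in WT. Together these 3 held 78.2% ± 0.115 of the summed carrier level in KO and 78.8% ± 0.0719 in WT (SD, n = 2). Ucp2 held 0.0435% ± 0.0107 in KO and 0.801% ± 0.0277 in WT, and ranked 12 of 50 in WT and 33 in KO. The exons of Ucp2 merged over its annotated transcripts come to 6989 bases, and with the longest transcript as its length it held 1.07% in WT and 0.0583% in KO.

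**Figure D3:**
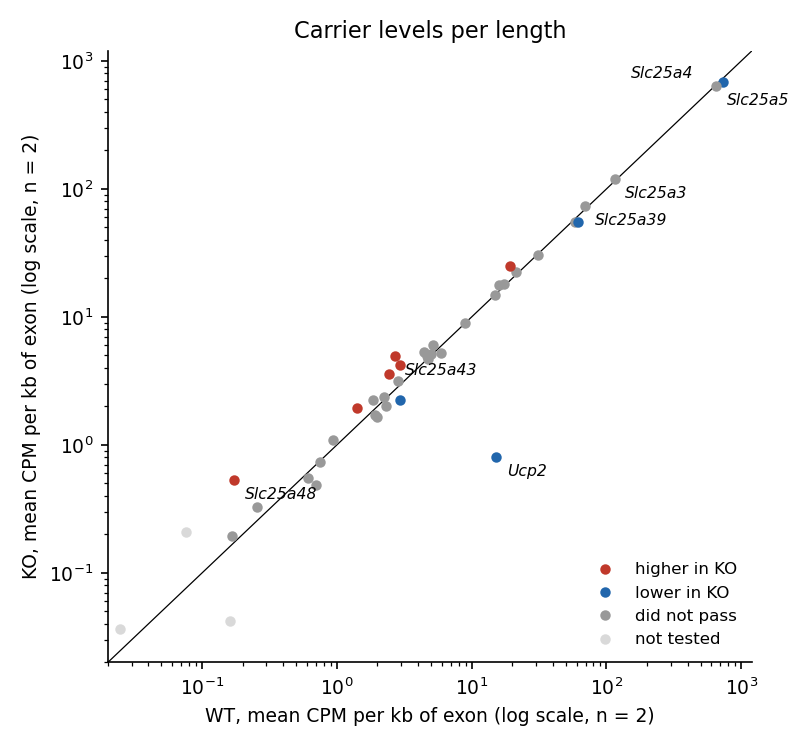
Mean CPM per kb of exon in WT (horizontal) and KO (vertical), both on log scales, for reported carriers with counts in both genotypes (n = 2 libraries each), with equal levels on the line. Slc25a4 and Slc25a5 lie near the line at the top right, and Ucp2 lies below it, at 15.2 in WT and 0.802 in KO.

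Slc25a4 was called lower although the shift was small: 1643 and 1595 CPM in KO, with 1712 and 1714 in WT, a log2 difference of -0.08 (SE 0.025, adjusted p = 0.0113 by edgeR). That call was lost without KO replicate 2 (adjusted p = 0.183, with 0.00141 to 1.0 over all alternatives). Slc25a5 did not pass, at 1059 and 1025 CPM in KO, with 1067 and 1076 in WT (log2 fold change -0.04, SE 0.028), and 8.33% of its windows occur in other genes, so that its counts are uncertain. Slc25a3 did not pass either, with a log2 fold change of 0.05 (SE 0.031). Slc25a25, a calcium-regulated carrier of ATP-Mg against phosphate, rose from 18.9 and 19.1 CPM in WT to 28.1 and 28.5 CPM in KO (log2 fold change 0.57, SE 0.109, adjusted p = 0.000154 by edgeR). Its exons share 379 bases with Naif1 on the opposite strand, so part of its counts could belong to that gene. Slc25a24, of the same subfamily, did not pass, with 71.7 and 81.7 CPM in KO, with 67.3 and 79.2 in WT. The pyrimidine nucleotide carriers Slc25a33 and Slc25a36 had log2 fold changes of 0.04 and 0.05 and did not pass.

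Of 8 cofactor carriers 2 were higher and 2 lower, beside 18.3% and 17.4% of all tested genes. Slc25a42, which imports coenzyme A, had 11.7 and 11.7 CPM in KO, with 7.67 and 9.39 in WT (log2 fold change 0.45, SE 0.165). Slc25a32, the folate and FAD carrier, fell from 17.1 and 18.5 CPM in WT to 13.4 and 13.9 CPM in KO (log2 fold change -0.39, SE 0.135). Slc25a17, which sits in the peroxisomal membrane and carries coenzyme A and FAD, fell from 171 and 182 to 160 and 153 CPM (log2 fold change -0.18, SE 0.049). Slc25a20, the carnitine-acylcarnitine carrier of fatty acid oxidation, had 85.2 and 86.2 CPM in KO, with 78.8 and 76.5 in WT. It did not pass (log2 fold change 0.14, adjusted p = 0.0605).

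Among amino acid carriers 1 of 7 tested passed, beside 35.7% of all tested genes. Slc25a44, which imports branched-chain amino acids, had 90.4 and 87.9 CPM in KO, with 70.3 and 67.7 in WT (log2 fold change 0.37, SE 0.061, adjusted p = 2.18e-05 by edgeR). The aspartate-glutamate carriers Slc25a12 and Slc25a13 of the malate-aspartate shuttle had log2 fold changes of -0.29 (SE 0.153) and 0.14 (SE 0.157), and the genotypes of both overlapped. The glutamate carrier Slc25a22 and the ornithine carrier Slc25a15 stood at 0.28 and 0.07 and did not pass.

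None of the 3 tested di- and tricarboxylate carriers passed, beside 35.7% of all tested genes. The citrate carrier Slc25a1, which supplies acetyl units for lipid synthesis, had 120 and 118 CPM in KO, with 126 and 129 in WT (log2 fold change -0.10, SE 0.051). The oxoglutarate-malate carrier Slc25a11 stood at -0.02 (SE 0.068) and the dicarboxylate carrier Slc25a10 at 0.26 (SE 0.132). None of the 4 iron and glutathione carriers passed either. Slc25a39, a glutathione importer and ranked 4 by level per length, had 208 and 196 CPM in KO, with 192 and 189 in WT (log2 fold change 0.09, SE 0.047). The mitoferrins Slc25a37 and Slc25a28, which import iron, had log2 fold changes of 0.23 (SE 0.092) and -0.03 (SE 0.321), and 6.11% of the windows of Slc25a37 occur in other genes.

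Of the 7 tested carriers assigned to no role above, 3 rose, beside 18.3% of all tested genes. Slc25a43 had 8.84 and 8.66 CPM in KO, with 4.67 and 4.86 in WT (log2 fold change 0.87, SE 0.199, adjusted p = 0.00105 by edgeR). Slc25a45 had 10.9 and 12.4 CPM in KO, with 8.03 and 8.29 in WT (log2 fold change 0.51, SE 0.165). Slc25a48 had the largest rise, a log2 fold change of 1.61 (SE 0.517), but from 7 and 3 estimated counts in WT to 22 and 18 in KO, so its size is poorly determined. Slc25a46, an outer membrane protein of mitochondrial shape, did not pass, at -0.02 (SE 0.060).

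The call of Ucp2 follows from how it was chosen and is not counted as support. Of the other 10 called carriers, 4 kept the call without any 1 of the 4 libraries, among them Slc25a25, Slc25a43 and Slc25a44. In mm10 Slc25a25 lies at chr2:32414487-32451445 and Slc25a44 at chr3:88410498-88425139, both on the minus strand, and Slc25a43 at chrX:36743659-36777202 on the plus strand. Slc25a32, Slc25a42 and Slc25a48 lost it without KO replicate 1, and these 3 with Slc25a4, Slc25a17 and Slc25a45 without KO replicate 2. Slc25a42 and Slc25a45 lost it without WT replicate 1, and Slc25a17, Slc25a32 and Slc25a48 without WT replicate 2. DESeq2 called 6 of the 11, with Ucp2 and Slc25a4 among them, and 16.9% of all genes. Slc25a17, Slc25a32, Slc25a42, Slc25a45 and Slc25a48 lost the call there. With an assumed biological coefficient of variation (BCV, the relative spread between replicates) of 0.1 in place of the fitted 0.0311, 5 carriers, Ucp2 included, and 14.6% of all genes were called. With a BCV of 0.2 the 1 carrier called was Ucp2, chosen by that fall, beside 3.26% of all genes.

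Genes that work beside the carriers fell into 5 lists, to be read against the 18.3% of all tested genes called higher and the 17.4% called lower. Among other inner membrane transporters 2 of 19 tested rose and 4 fell, and Slc8b1, the mitochondrial sodium-calcium exchanger, rose from 10.7 and 8.18 CPM to 20.5 and 18.0 CPM (log2 fold change 1.04, SE 0.153). Of 6 listed outer membrane genes 1, Mtch1, rose (log2 fold change 0.28, SE 0.059) and 1, Mtch2, fell (-0.14, SE 0.042). The channels Vdac1, Vdac2 and Vdac3 did not pass, nor did Tspo. Of the 16 genes that import carriers through the TOM and TIM22 complexes 2 rose and 2 fell. Among 21 tested enzymes that hand substrates to carriers 6 rose and 6 fell. Alas1, which starts haem synthesis in the matrix, rose from 219 and 214 to 335 and 329 CPM (log2 fold change 0.61, SE 0.041). Mthfd2, an enzyme of mitochondrial folate metabolism, fell from 50.6 and 48.8 to 28.2 and 27.5 CPM (log2 fold change -0.83, SE 0.085). Of 8 tested regulators of mitochondrial genes 3 rose and 1, Tfam, fell (log2 fold change -0.45, SE 0.135). Nrf1 rose by 0.43 (SE 0.073), and the coactivator Ppargc1b, at -0.48 (SE 0.454), did not pass. The coactivator Pprc1 rose by a log2 fold change of 0.54 (SE 0.139), a call lost in DESeq2 (adjusted p = 0.0798). The coactivator Ppargc1a, at 0.773 to 3.06 CPM, rose by 1.16 (SE 0.429). Its call was lost in DESeq2 (adjusted p = 0.264), without KO replicate 1 (log2 fold change 0.72) and without WT replicate 2 (log2 fold change 0.76). The median log2 fold changes of these 5 lists lay between -0.077 and 0.167, against 0.001 for all tested genes.

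ATAC-seq gave a measure that did not enter the choice of the carriers, with 1 library per genotype and therefore no test. The values are the authors' fold enrichment of a peak's summit over the background of its own library, and no ratio is formed between lists. The KO list held 121748 peaks with a median fold of 6.38 and the WT list 123935 with a median of 5.75. A peak overlapped the 2 kb centred on the gene's 5′ end for 45 of 50 carriers in each list. Among tested carriers it did so for 38 of 39 in each, against 93.6% of all tested genes in either list. Of the 44 carriers with a promoter peak in both lists, 33 had the higher fold in the KO list and 11 in the WT list, with medians of 22.32 and 20.34. The KO list had the higher median over all its peaks too. The share among the promoters of all genes was not counted, so these numbers are no result about carriers.

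Among the carriers, the promoter peak of Ucp2 was one of the weaker ones in KO and of middle strength in WT. In the WT list it spanned 3221 bases (chr7:100492608-100495828) with a fold of 20.54 and a −log10 q of 54.1. In the KO list it spanned 1688 bases (chr7:100492820-100494507) with a fold of 8.5 and a −log10 q of 14.3. A separate KO peak of fold 4.25 covered the last 510 bases of the WT interval. The summits lay 500 bases downstream of the start in WT and 580 in KO, both just beyond the printed intron stretch. By fold among the 44 carriers, Ucp2 ranked 20 in the WT list and 41 in the KO list. Against all peaks, its fold exceeded 94.7% of the WT list and 65.1% of the KO list.

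**Figure D4:**
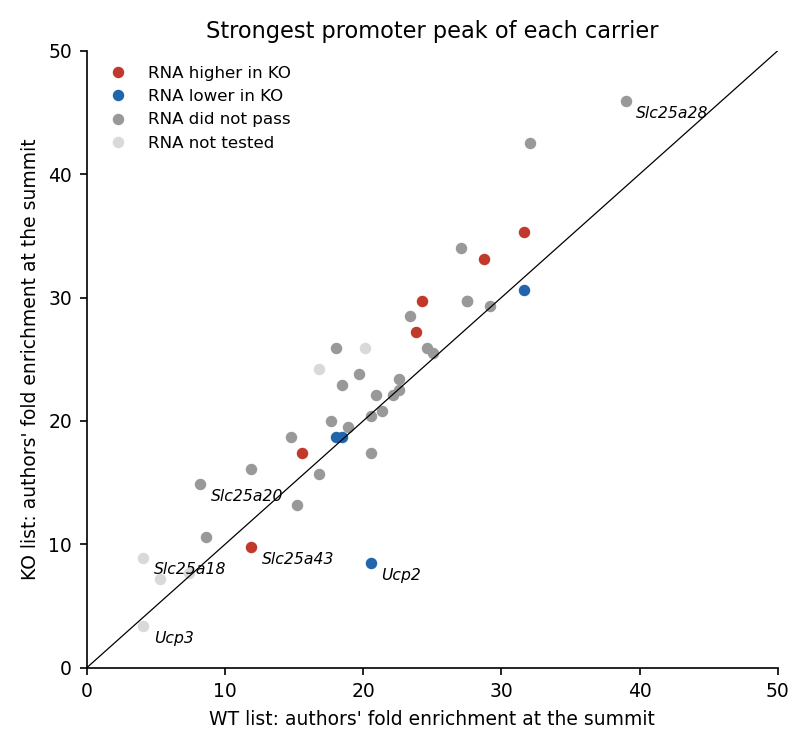
The authors' fold enrichment of the strongest promoter peak in the WT list (horizontal) and the KO list (vertical) for 43 of 44 carriers, 1 library each, coloured by the RNA call, with equal values on the line. Ucp2 (20.54 and 8.5) lies farthest below the line.

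Other called carriers had these folds at their promoters. Slc25a25 had 33.15 in KO and 28.75 in WT, and Slc25a44 29.75 and 24.24. Slc25a45 had 35.28 and 31.63, Slc25a42 27.2 and 23.82, and Slc25a48 17.43 and 15.61. Slc25a43, the carrier with the second-largest rise, had the lower fold in KO, at 9.78 against 11.91. For the carriers that fell, Slc25a32 had 30.6 and 31.63, Slc25a17 18.7 and 18.48, and Slc25a4 18.7 and 18.07. Of the 10 called carriers other than Ucp2, 8 had the higher fold in the KO list, as had 33 of all 44 carriers with a peak in both. Those 8 include 2 of the 3 whose RNA fell.

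Other peaks near Ucp2 were mostly weak, and some appeared in 1 list alone. Within 50 kb of the gene the KO list had 15 peaks and the WT list 14, of which 4 in each did not overlap a peak of the other, 26.7% of the KO and 28.6% of the WT peaks. Over the whole lists 23.7% of KO and 24.4% of WT peaks had no overlap, so the shares around Ucp2 were near the background. Of the 4 WT peaks, 1 lay inside Ucp2 with its summit 6984 bases from the start (fold 4.11), and the next 2 lay behind its end in Dnajb13, 8877 and 10191 bases from the start (folds 3.7 and 5.34), and the last lay in Mrpl48 (fold 5.75). The 4 KO peaks had folds of 3.83 to 5.53, in C2cd3, Dnajb13, Mrpl48 and between genes. The peak at 10191 bases is the one whose centre is printed above. No KO peak lay between 2114 and 18230 bases from the start by summit. At Coa4 the promoter fold was 22.1 in KO and 18.9 in WT, the reverse order of Ucp2. The 5 shared peaks in Ucp3 had folds of 2.98 to 5.1 in KO and 3.7 to 8.22 in WT.

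**Figure D5:**
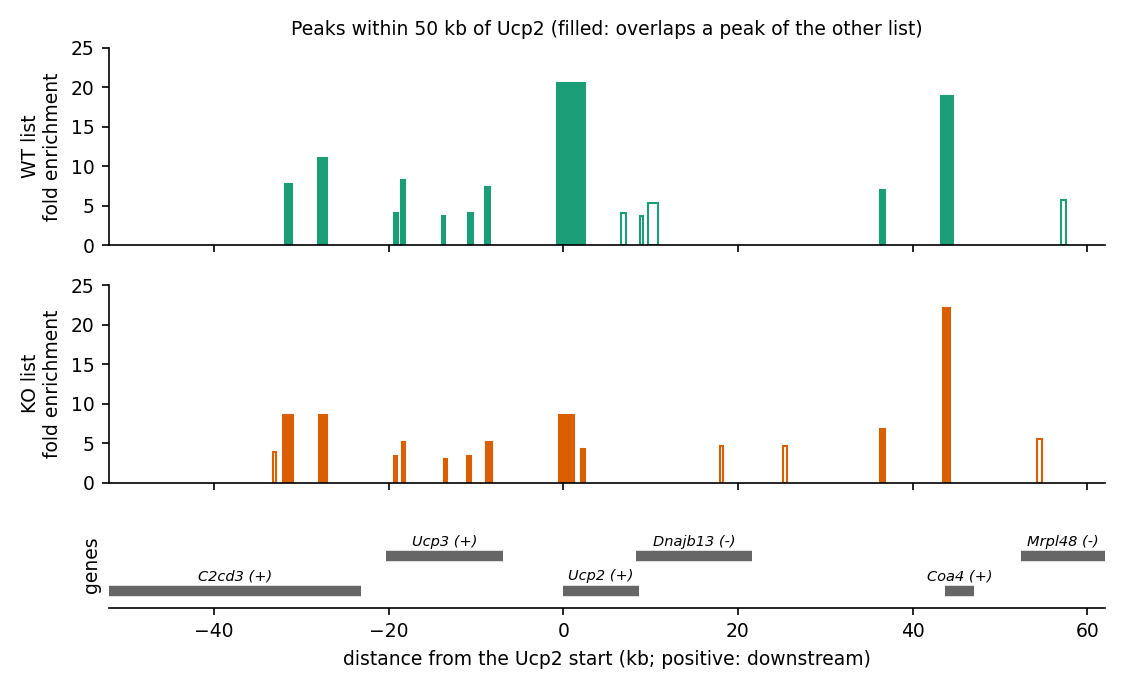
Peaks within 50 kb of Ucp2 by distance from its start in kb, with the authors' fold enrichment as height, in the WT list (top) and KO list (middle), and gene bodies below, of which C2cd3 and Mrpl48 run past the edges. Filled bars overlap a peak of the other list, and the widest bar, over the Ucp2 start, reaches 20.54 in WT and 8.5 in KO.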

How the data were processed

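RNA-seq covered 2 KO and 2 WT libraries, and ATAC-seq, which reads open chromatin, 1 of each. The deposited RNA table holds estimated counts, of which 10.8 to 12.2% per library are not whole. Per the labels' protocols, Trim Galore 0.6 and FastQC came before alignment by STAR 2.5.3a to mm10 and an adjustment to transcript-normalized values, which the table does not hold. The counting program is not given in the sources used here. Per the labels, ATAC-seq reads were placed by Bowtie2 2.3, PCR duplicates and mitochondrial reads were dropped, and MACS2 ran on each sample with no local background model. In the peak lists, as deposited, each peak has a score (a whole number), a fold enrichment, a −log10 p-value and a −log10 q-value.

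For testing, estimates were rounded to whole numbers and all genes went through edgeR 4.0.16 (R 4.3.3): filterByExpr with a minimum count of 10, TMM, and the quasi-likelihood test of genotype. P-values of the 12192 tested genes were adjusted together (Benjamini-Hochberg, threshold 0.05). An SE here is the size of the log2 fold change over the square root of its F statistic. CPM came from unrounded estimates and TMM-scaled library sizes. The procedure was tested on simulated data. Replicates differed by more than counting noise, with a chi-square per degree of freedom of 1.99 (KO) and 1.77 (WT), and of 17.4 to 18.1 between genotypes. GENCODE M21 supplied gene models, and all 50 carriers matched its coordinates. RefSeq promoters were found for 39 carriers. The lists were fibroblast, macrophage and leukocyte, endothelial, cardiomyocyte and adipocyte markers and 5 mitochondrial groups. Members, roles and lists were chosen with earlier results of these data known. The rule for names took Ucp1 to Ucp3, called carriers, the 5 most abundant uncalled carriers, up to 3 called genes per mitochondrial group with an absolute log2 fold change of at least 0.5, and genes within 100 kb of Ucp2. Any other gene was named after its values were seen. Of the called carriers, 1 is counted but not reported here.

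Alternatives were DESeq2 1.42.0, other scalings, no filter, an assumed BCV, leaving out each library, the replicate number as a block, and other peak windows, thresholds and overlaps. Same-numbered libraries did not deviate together (correlation of deviations 0.000403).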

Additional observations from a re-analysis of the deposited data

How the results depend on the processing

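The log2 fold change of Ucp2 ran from -4.54 to -3.99 over the 11 alternatives run on the counts, both from leaving out a KO library. The 7 carriers called higher and 4 called lower became 4 and 2 by DESeq2, 4 and 1 at a BCV set to 0.1, and 0 and 1 (Ucp2, chosen by its fall) at a BCV of 0.2, while all called genes went from 4352 to 2058, 1780 and 398. Without 1 library at a time the carriers called higher numbered 4 to 6, those called lower 1 to 5, and the median log2 fold change of the carriers ran from 0.019 to 0.059. With the replicate block the numbers were 9 and 4, with the 11 calls kept and Slc25a20 and Slc25a37 added, as with library size as the only scaling. The numbers serve only as labels here, since 2 pairs cannot show a pairing. With the longest transcript as the length, the 3 most abundant carriers held 77.0% in WT in place of 78.8%. With peaks of −log10 q of at least 5 only, 9 WT peaks lay around Ucp2 in place of 14, and 2 of them did not overlap a KO peak. Counts of carriers with a promoter peak ran from 42 to 45 in each list over the windows, thresholds and overlaps tried, among them any annotated transcript start, which was chosen after seeing the data. With 2 libraries per genotype and 2 residual degrees of freedom, small shifts such as that of Slc25a4 rest on the fitted spread.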

Other observations

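Several carriers with few or no transcripts had a promoter peak in both lists. Slc25a27, with at most 7 estimated counts in a library, had folds of 24.23 in KO and 16.84 in WT. Slc25a23, with at most 17, had 25.93 and 20.13. At 0 counts in every library, Slc25a34 had 7.23 in KO and 5.34 in WT, and Slc25a18 had 8.93 and 4.11. For Slc25a18 these are different sites, with summits at -1489 bases from the start in KO, outside the 2 kb window that the peak reaches into, and at -114 in WT. Ucp3, also at 0, had 3.4 and 4.11. Ucp1 had a peak of 4.25 in the KO list alone, and Slc25a2 a peak of 3.7 in the WT list alone. Over the whole lists 23.7% of KO and 24.4% of WT peaks overlapped no peak of the other. In the other direction, Slc25a37 had 250.2 to 418.62 estimated counts per library. It had no peak at the 5′ end of its gene model or at any annotated transcript start in either list. Of the windows of its transcripts 6.11% occur in other genes, and whether ATAC-seq reads can be placed at its starts was not tested. Slc25a29 and Slc25a47, which are adjacent on chromosome 12, share 1 promoter peak of 29.75 in KO and 27.52 in WT, and had 11 to 18 and 4 to 12 estimated counts.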
